A study of Mus musculus with 9 samples.

Results

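Keratins and proteins of the cornified envelope are best known from epithelia, and 9 genes of this kind were followed in mouse hearts after myocardial infarction (MI): Sprr1a, Scel, Ppl, Evpl, Krt7, Krt8, Krt18, Krt80 and Sfn. They were taken by symbol from a table of read counts for 24964 gene symbols, and were selected on their fold changes between MI and sham hearts and between the MI times in these same libraries. All 9 were in the table, and all 9 passed the filter on low counts that left 14347 genes. Their levels and fold changes are therefore given as a description, without p-values.

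The libraries are bulk RNA-seq of 9 hearts, 1 per mouse, of male C57BL/6JR mice aged 8 weeks per the study's design text, with 3 mice in each of 3 groups. In the MI 28 d and MI 7 d groups an opened chest gave access to the left anterior descending artery, which was ligated, and hearts were taken 28 d or 7 d later. Sham mice had the same surgery without the ligation. No transgene or drug is named for any group, and the tissue is given only as heart, with no harvest time for the sham hearts and no word on how much scar, epicardium or fat a sample held.

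Keratins are intermediate filament proteins that assemble as pairs of a type I and a type II chain. Krt18 (type I) pairs with Krt8 or Krt7 (type II) in single-layered epithelia, and such keratins are also found in mesothelium, the layer that covers the heart as epicardium. The cornified envelope is a sheath of cross-linked protein that forms under the membrane of keratinocytes as they differentiate. In it, transglutaminases join small proline-rich proteins, sciellin and the plakins envoplakin and periplakin. Sprr1a is also known as a gene induced in stressed rodent cardiomyocytes downstream of gp130, the receptor subunit shared by cytokines of the interleukin-6 family.

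Promoter windows of Sprr1a, Scel and Krt18 are shown because Sprr1a and Scel had the 2 largest fold changes of the 9 genes at 7 d and Krt18 had the highest mean level per kilobase of the 4 keratins after MI. Each runs from 250 bases before to 50 after the transcription start, in RefSeq's annotation of GRCm38.p6 and on the strand of the gene. The Sprr1a window lies on the minus strand at chr3:92485832-92486131, the Scel window on the plus strand at chr14:103513091-103513390, and the Krt18 window on the plus strand at chr15:102027966-102028265. Capitals mark TGANTCA, the site bound by AP-1, and TATAAA, the TATA box.
Sprr1a: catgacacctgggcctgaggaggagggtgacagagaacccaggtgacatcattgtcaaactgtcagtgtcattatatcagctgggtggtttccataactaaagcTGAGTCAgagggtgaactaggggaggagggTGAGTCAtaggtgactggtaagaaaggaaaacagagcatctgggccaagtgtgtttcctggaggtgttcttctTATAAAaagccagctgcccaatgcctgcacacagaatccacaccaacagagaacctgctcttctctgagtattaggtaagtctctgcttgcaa
Scel: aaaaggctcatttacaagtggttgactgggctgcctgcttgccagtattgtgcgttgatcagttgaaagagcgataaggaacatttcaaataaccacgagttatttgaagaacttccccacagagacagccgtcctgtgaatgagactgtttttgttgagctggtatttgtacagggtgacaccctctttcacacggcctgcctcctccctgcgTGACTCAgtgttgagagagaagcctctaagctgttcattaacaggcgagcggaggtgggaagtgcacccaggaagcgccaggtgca
Krt18: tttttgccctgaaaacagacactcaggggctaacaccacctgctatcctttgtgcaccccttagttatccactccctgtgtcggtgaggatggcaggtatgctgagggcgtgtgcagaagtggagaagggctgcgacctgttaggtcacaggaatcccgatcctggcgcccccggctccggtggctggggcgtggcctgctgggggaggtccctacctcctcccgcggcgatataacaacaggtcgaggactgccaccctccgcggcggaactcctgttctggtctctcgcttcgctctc
Of the 9 genes 6 had a window (Sprr1a, Scel, Krt7, Krt8, Krt18 and Sfn), and 4 motifs were searched on both strands. TGANTCA was found in 2 of the 6 windows, those of Sprr1a and Scel, and in 7.81% of 32851 windows of the same length. In Sprr1a it began at -146 and at -116 and in Scel at -36, counted from the start site of each window. The Scel window begins inside the span given for the gene (chr14:103513061-103613346). Its start site therefore lies downstream of the first base of that span. TATAAA began at -43 in Sprr1a and was held by 13.62% of all windows. It was also found in the Krt8 window, at -1 and, on the other strand, at -3, and so at the start site itself. GGAATG, the site of TEAD factors (14.66% of windows), and TTCNNNGAA, the site of STAT factors (8.3%), were found in none of the 6. A match shows only that the letters are there.

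Libraries held 15300344 to 15770389 counts at 28 d, 18355720 to 19238101 at 7 d and 12351525 to 13629120 in sham hearts. Levels are CPM, counts relative to the library total after TMM scaling, and ± is the SD over the 3 libraries of a group. Cardiomyocyte markers, the defining genes of the labelled tissue, summed to 28079 to 52394 CPM at 28 d, 11518 to 15094 at 7 d and 94487 to 98445 in sham hearts. In bulk RNA, fewer cells of a type and less RNA per cell cannot be told apart. Libraries also stood apart within the MI groups. The 10 mesothelial markers in the table summed to 161, 193 and 993 CPM in MI 28 d libraries 1, 2 and 3, to 40.6, 87.8 and 191 CPM in MI 7 d libraries 1, 2 and 3, and to 14.7, 14.8 and 14.7 CPM in sham libraries. The 5 adipocyte markers reached 1027 and 812 CPM in MI 28 d libraries 1 and 3 and 1434 CPM in MI 7 d library 3, and lay between 2.55 and 28.0 CPM in all other libraries.

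Most of the 9 genes were higher in infarcted than in sham hearts at both times. At 28 d 8 of 9 were called higher than sham (all but Sfn) by edgeR's quasi-likelihood test at an adjusted p of 0.05, where 29.5% of all tested genes were called higher, 25.6% lower and 55.1% in either direction. At 7 d 8 of 9 were called higher (all but Ppl), where 39.0% of all tested genes were called higher, 35.4% lower and 74.4% in either direction. None was called lower in either comparison. Without overlap between libraries, 8 of 9 lay above sham at 28 d, where 34.7% of all tested genes lay above and 31.7% below. At 7 d 8 of 9 did, where 42.6% lay above and 38.2% below. These counts follow from how the genes were selected and nothing is read from them. The median log2 fold change over the 9 genes was 3.81 at 28 d, against 0.054 over all tested genes, and 3.14 at 7 d, against 0.064. The MI groups were compared with the same 3 sham libraries. Between the MI groups 3 of the 9 genes were called, Ppl higher at 28 d and Scel and Sfn lower, where 29.1% of all tested genes were called higher, 26.1% lower and 55.2% in either direction. The same 3 were without overlap between the MI groups, where 30.9% of all tested genes lay above and 28.9% below.

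**Figure D1:**
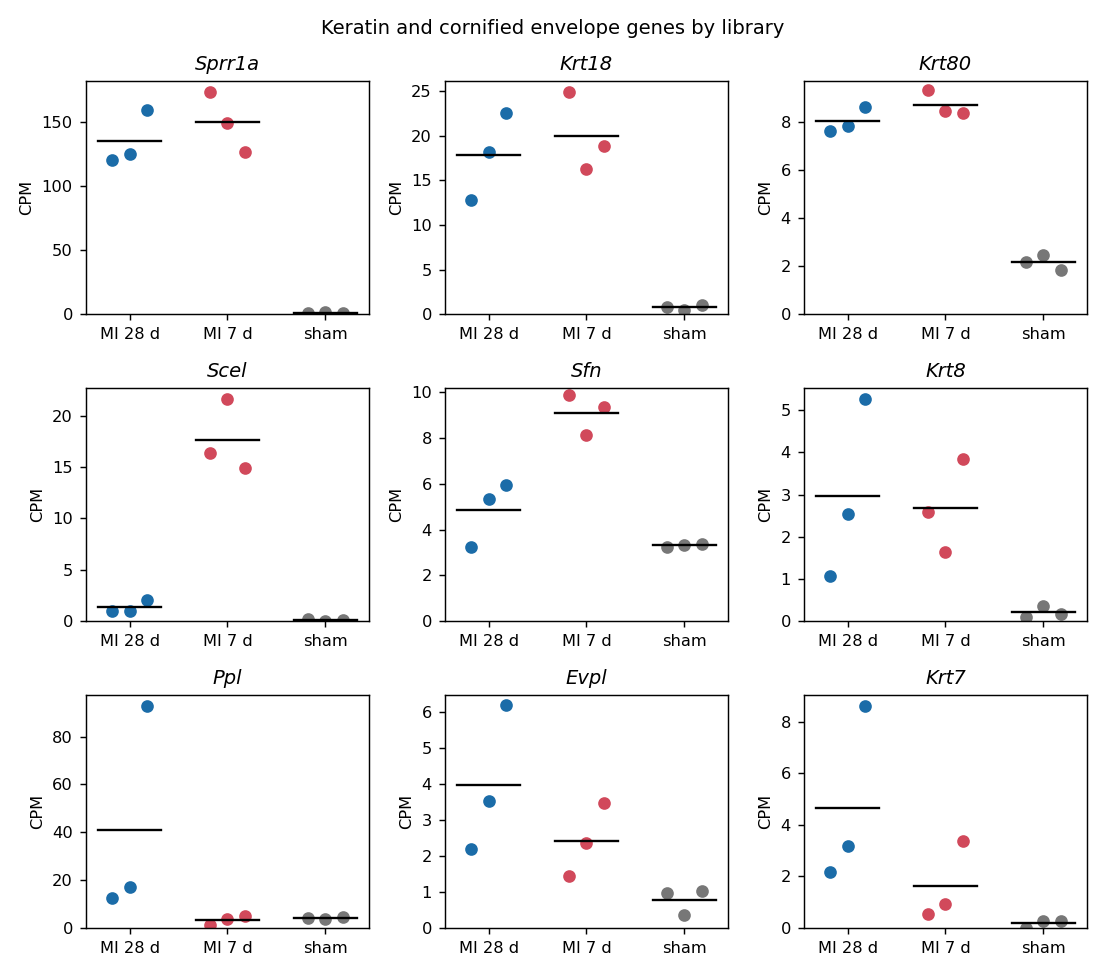
Level of each of the 9 genes in each library, in CPM on a separate linear axis per gene; points are the 3 libraries of a group and the black line is their mean. Sprr1a, Krt18 and Krt80 sit at like levels in both MI groups, Scel and Sfn are highest at 7 d, and Ppl, Evpl, Krt7 and Krt8 spread widely among the MI libraries, with Ppl at 93.0 CPM in 1 of them.

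Sprr1a, the small proline-rich protein of the envelope (chr3:92483954-92485881, minus strand), had the highest mean level of the 9 genes after MI, at 167 CPM per kilobase of mRNA at 28 d and 186 at 7 d, against 1.499 in sham hearts. It stood at 120, 125 and 159 CPM in MI 28 d libraries, at 173, 149 and 127 CPM in MI 7 d libraries, and at 0.785, 1.66 and 1.18 CPM in sham libraries. Every infarct library lay far above every sham library, and the MI groups overlapped. The means were 135 ± 21.2 CPM at 28 d, 150 ± 23.2 CPM at 7 d and 1.21 ± 0.436 CPM in sham hearts (n = 3 each). The log2 fold change against sham was 6.80 ± 0.24 (SE) at 28 d and 6.95 ± 0.24 at 7 d, and that of 28 d against 7 d was -0.15 ± 0.16. On this gene alone the sham libraries held 9, 18 and 14 counts and the infarct libraries 1811 to 3596. Of 50 protein-coding genes within 1 Mb of Sprr1a, a stretch that holds many other envelope genes, 46 stayed under 10 counts in every library and 36 had 0 counts in all 9. Lor, Sprr2a3 and Tchh were the other 3 that reached 10 counts in some library. How reads that map to several places were counted is not given. For genes of like sequence, such as those of the Sprr2 family, 0 counts therefore need not mean no message.

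Scel encodes sciellin, a precursor of the envelope (chr14:103513061-103613346, plus strand), and was highest at the earlier time. It stood at 0.995, 0.993 and 2.09 CPM at 28 d, at 16.4, 21.6 and 14.9 CPM at 7 d, and at 0.174, 0 and 0.0845 CPM in sham hearts. The 3 groups did not overlap, and all 3 sham libraries together held 3 counts, against 67 at 28 d and 1088 at 7 d. The ratio of summed, scaled counts to sham was 15.8 at 28 d (95% counting interval 5.16 to 78.3) and 201 at 7 d (68.5 to 974). The fitted log2 fold change was -3.68 ± 0.33 for 28 d against 7 d, a 12.8-fold lower level at the later time.

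Ppl and Evpl encode periplakin and envoplakin, the plakins that tie keratin filaments and desmosomes to the envelope. Ppl (chr16:5086291-5132481, minus strand) stood at 12.5, 16.9 and 93.0 CPM at 28 d, at 1.40, 3.56 and 5.005 CPM at 7 d, and at 4.10, 3.68 and 4.48 CPM in sham hearts. It was the only one of the 9 whose 7 d libraries straddled the sham range, and all 3 of its 28 d libraries lay above both other groups. The log2 fold change was 3.32 ± 0.78 for 28 d against sham, -0.30 ± 0.82 for 7 d against sham and 3.62 ± 0.77 for 28 d against 7 d. Library 3 decided much of the size at 28 d: without it the values were 1.85 against sham and 2.15 against 7 d. The highest 28 d library was 7.45 times the lowest, and 1.02% of tested genes had a larger SD of log2 CPM in that group.

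Evpl (chr11:116220559-116238165, minus strand) stood at 2.19, 3.54 and 6.20 CPM at 28 d, 1.44, 2.38 and 3.46 CPM at 7 d, and 0.960, 0.368 and 1.01 CPM in sham hearts. All infarct libraries were above all sham libraries, and the MI groups overlapped. The log2 fold change against sham was 2.33 ± 0.52 at 28 d and 1.62 ± 0.53 at 7 d. The call at 7 d was lost without sham library 2 (1.29) or MI 7 d library 3 (1.27).

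The type II keratin Krt7, typical of ducts and mesothelium (chr15:101412403-101427806, plus strand), stood at 2.19, 3.16 and 8.63 CPM at 28 d, at 0.529, 0.941 and 3.37 CPM at 7 d, and at 0, 0.276 and 0.254 CPM in sham hearts. Library 3 was the highest in both MI groups, and no infarct library overlapped with sham. Sham libraries held 6 counts of Krt7 in all, so the ratio of summed, scaled counts had a wide interval, 27.4 (12.4 to 75.4) at 28 d and 9.22 (4.09 to 25.7) at 7 d. The fitted log2 fold change against sham was 4.68 ± 1.02 at 28 d and 3.14 ± 1.09 at 7 d. The call at 7 d was lost without sham library 1 (2.58), sham library 3 (3.51) or MI 7 d library 3 (2.01). For 28 d against 7 d the value was 1.53 ± 0.71, not past the threshold, and it moved to 2.66 and past the threshold without MI 7 d library 3.

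Krt8 and Krt18, the keratin pair of simple epithelia, lie 23.9 kb apart on chromosome 15. Krt8 (type II, chr15:101996711-102004342, minus strand) stood at 1.06, 2.54 and 5.27 CPM at 28 d, at 2.60, 1.63 and 3.85 CPM at 7 d, and at 0.0872, 0.368 and 0.169 CPM in sham hearts. Krt18 (type I, chr15:102028216-102032026, plus strand) stood at 12.8, 18.2 and 22.5 CPM at 28 d, at 24.9, 16.3 and 18.8 CPM at 7 d, and at 0.872, 0.460 and 1.01 CPM in sham hearts. For both genes every infarct library exceeded every sham library and the MI groups overlapped. Against sham, the log2 fold change of Krt18 was 4.49 ± 0.33 at 28 d and 4.65 ± 0.33 at 7 d, and that of Krt8 was 3.81 ± 0.76 and 3.66 ± 0.76 at the same times.

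The pair was uneven in level. Per kilobase of mRNA, the level of Krt18 was 16.4, 9.77 and 5.82 times that of Krt8 in MI 28 d libraries 1, 2 and 3, and 13.1, 13.6 and 6.66 times in MI 7 d libraries. In sham libraries the ratio was 13.6, 1.70 and 8.18, but rested on 7 counts of Krt8 over the 3 libraries. Krt18 was thus the more abundant message in all 9 libraries, and its excess was smallest in library 3 of each MI group. Transcripts of the processed pseudogenes Gm5200 (90.4% identical over 1267 bases of Krt18) and Krt8-ps (98.6% over 941 bases of Krt8) are not rows of the table, and how reads that map to several places were counted is not given, so both levels are uncertain to that extent.

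Krt80, a type II keratin that is broadly expressed in differentiating epithelia (chr15:101348315-101370162, minus strand), varied least of the 9 among the libraries of each MI group. It stood at 7.63, 7.82 and 8.63 CPM at 28 d, at 9.33, 8.47 and 8.37 CPM at 7 d, and at 2.18, 2.48 and 1.86 CPM in sham hearts. Against sham, the log2 fold change was 1.88 ± 0.16 at 28 d and 2.00 ± 0.16 at 7 d. Of all tested genes 79.8% had a larger SD of log2 CPM at 28 d, and every infarct library lay above every sham library. Along the 683.7 kb from Krt80 to Krt18 the table has 26 keratin genes, of which 20 stayed under 10 counts in every library. The 6 that reached 10 counts were Krt7, Krt8, Krt18, Krt80, Krt76 and Krt79.

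Sfn encodes 14-3-3 sigma, or stratifin, an adaptor of keratinocytes that is induced by p53 and holds the cell cycle (chr4:133600556-133602168, minus strand). It stood at 3.25, 5.33 and 5.97 CPM at 28 d, at 9.86, 8.12 and 9.34 CPM at 7 d, and at 3.23, 3.31 and 3.38 CPM in sham hearts. The 7 d libraries lay above all others, and the lowest 28 d library lay within the sham range. On the log2 scale the fold change was 1.46 ± 0.22 for 7 d against sham, 0.56 ± 0.23 for 28 d against sham and -0.90 ± 0.21 for 28 d against 7 d. The value at 28 d against sham was 0.76 and past the threshold without MI 28 d library 1. Stretches of Sfn are 94.6% and 97.5% identical to the processed pseudogenes Gm5279 and Gm7850, with the same limit on its counts as for Krt8 and Krt18.

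**Figure D2:**
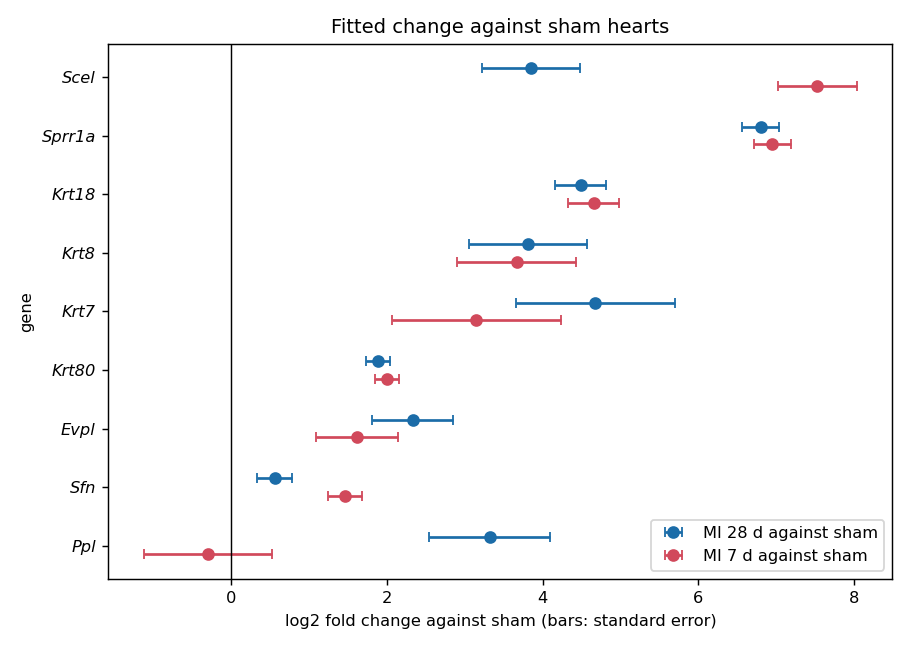
Log2 fold change against sham for each of the 9 genes at 28 d and 7 d, with bars of ± 1 SE of the fitted model. Sprr1a lies near 7 at both times, Scel drops to 3.85 at 28 d against 7.53 at 7 d, and Ppl is at 3.32 at 28 d but -0.30 at 7 d.

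By their course the genes fell into 3 kinds, named here only to order the description. Sprr1a, Krt18 and Krt80 had like levels at both times, with log2 differences between the MI groups of -0.15, -0.16 and -0.12. For Sprr1a this difference was -0.39 without library 3 of both MI groups and -0.37 without the 3 adipocyte-rich libraries, past the threshold in both settings. Scel and Sfn were highest at 7 d. Ppl, Evpl, Krt7 and Krt8 varied most among libraries of 1 group. In each MI group Ppl, Evpl and Krt7 followed the order of libraries 1, 2 and 3 in the mesothelial marker sum. Marker sums of other cell types followed this order in part. Macrophage markers summed in the same order, to 671, 674 and 1103 CPM at 28 d and 3277, 3655 and 4243 CPM at 7 d. At 28 d that sum was mostly Lyz2, at 415, 410 and 770 CPM. Of the macrophage markers only Cd68 had the order in both MI groups. Adgre1 (39.2, 48.0 and 38.1 CPM) and Fcgr1 (10.5, 12.3 and 9.62 CPM) were lowest in library 3 at 28 d. Fibroblast markers summed in the mesothelial order at 28 d (5102, 6820 and 10308 CPM) but not at 7 d. That order in both MI groups was shared by 3 of the 9 genes and by 3.03% of all tested genes. Of the 10 tested mesothelial markers 8 had it, which follows in large part because their own sum set the order. At 28 d alone 8 of the 9 genes had it (all but Scel), where 24.1% of all tested genes did, and at 7 d alone 3 of 9, where 11.3% did. Cardiomyocyte markers summed in the reverse order at 28 d, to 52394, 37117 and 28079 CPM in libraries 1, 2 and 3. The 9 genes were selected on their changes after MI, so no link to mesothelium is read from these counts.

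The mesothelial markers themselves, a list chosen with earlier results of these data known, were called higher in 10 of 10 at 28 d and 9 of 10 at 7 d. Of all tested genes 29.5% were called higher at 28 d and 39.0% at 7 d. Upk3b, a uroplakin of mesothelium, stood at 43.7, 52.6 and 293 CPM at 28 d, at 5.44, 15.8 and 46.6 CPM at 7 d, and at 0.349, 0.368 and 0.930 CPM in sham hearts. Its log2 fold change against sham was 7.85 ± 1.32 at 28 d (edgeR quasi-likelihood test, adjusted p = 0.000969) and 5.33 ± 1.38 at 7 d (adjusted p = 0.00567). None of the 10 was at 0 in an infarct library, whereas Upk1b was at 0 in sham library 1 and Bnc1 in sham libraries 2 and 3. The part of mesothelial RNA in the levels of Ppl, Evpl, Krt7 and Krt8 was not tested. Without library 3 of both MI groups, the log2 fold change against sham at 28 d was 1.85 for Ppl and 3.87 for Krt7.

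**Figure D3:**
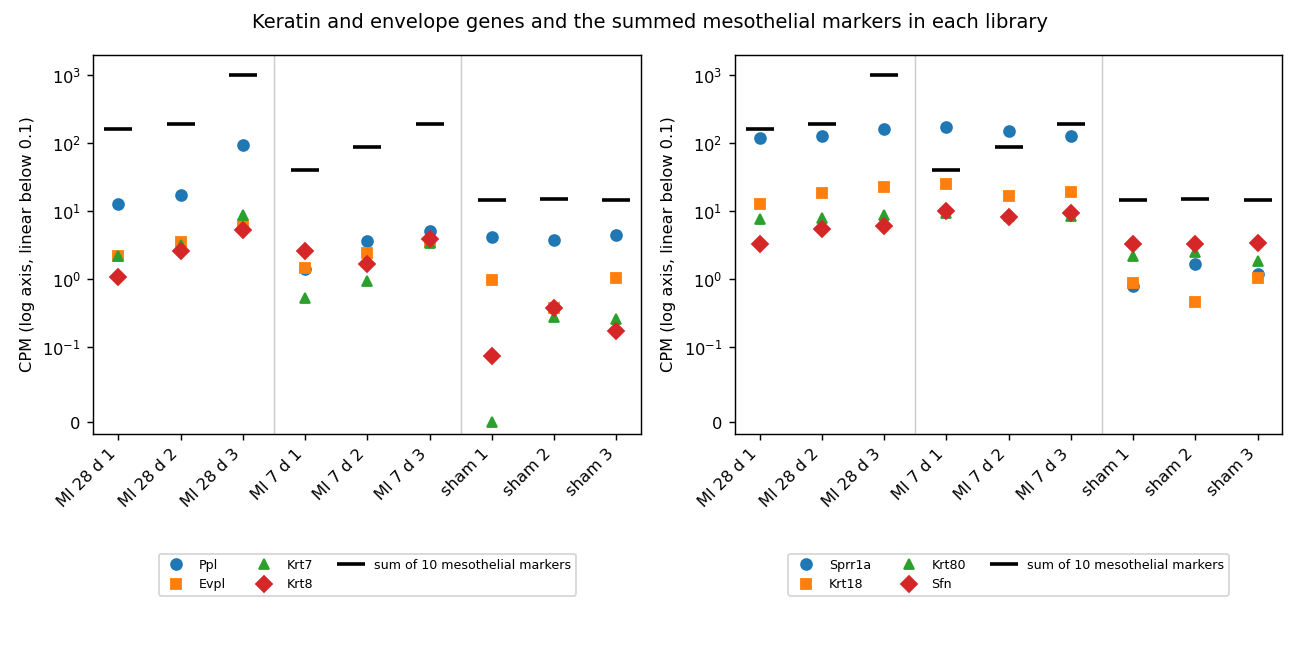
CPM per library on an axis that is logarithmic above 0.1 and linear below it, with black bars for the sum of 10 mesothelial markers. At left Ppl, Evpl, Krt7 and Krt8, and at right Sprr1a, Krt18, Krt80 and Sfn; the bars reach 993 CPM in MI 28 d library 3 and 191 CPM in MI 7 d library 3, where Ppl, Evpl and Krt7 are also at their highest within each MI group, while Krt80 stays between 7.63 and 9.33 CPM in all 6 infarct libraries.

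Markers of other epithelia were low in these hearts. Of 9 keratinocyte markers 4 passed the filter, and the whole list summed to 3.71 to 4.71 CPM at 28 d, 3.42 to 6.74 CPM at 7 d and 4.39 to 4.62 CPM in sham hearts. Krt5, the basal keratin, had counts in 1 of the 9 libraries, 0.124 CPM in MI 28 d library 2. Krt1, Ivl, Dsg3 and Krtdap were also at or near 0 throughout. Of the 4 tested markers, Krt14 was called higher and Krt10 lower at both times, and the other 2 were not called. Krt14, the partner of Krt5 in basal keratinocytes, stood at 0.531, 0.868 and 0.695 CPM at 28 d, at 0.289, 0.0990 and 1.15 CPM at 7 d, and at 0, 0.0920 and 0 CPM in sham hearts, where it had 1 count in all. Lung epithelial markers summed to 2.06 to 2.95 CPM at 28 d, 2.92 to 3.03 CPM at 7 d and 0.523 to 0.761 CPM in sham hearts, after MI mostly Ager, the 1 tested marker of 8, which was called higher at both times. Thymic epithelial markers summed to at most 1.40 CPM in any library.

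Marker sums of other cell types moved with the time course as well. Fibroblast markers summed to 5102 to 10308 CPM at 28 d, 28005 to 36204 CPM at 7 d and 1896 to 1942 CPM in sham hearts, and macrophage markers to 671 to 1103 CPM at 28 d, 3277 to 4243 CPM at 7 d and 412 to 457 CPM in sham hearts. Both sums were highest at 7 d, as were Scel and Sfn, whereas Sprr1a, Krt18 and Krt80 had overlapping levels in the MI groups. At 7 d the fibroblast sum was mostly Col1a1, Col3a1 and Postn. Of the 6 fibroblast markers 4 were called lower at 28 d than at 7 d, where 26.1% of all tested genes were. Dcn, not called, had the higher mean at 28 d, 2371 ± 1439 CPM against 1444 ± 177 CPM at 7 d. What these cell types contribute to the 9 genes was not tested.

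Among 22 other epithelial keratins only 3 passed the filter, and 5 had 0 counts in all libraries. At each time 2 were called higher (Krt19 and Krt14) and 1 lower (Krt10). For all tested genes the shares were 29.5% higher and 25.6% lower at 28 d, and 39.0% and 35.4% at 7 d. The call of Krt14 was lost at 28 d without sham library 1 or sham library 3, and at 7 d without sham library 1, sham library 3, MI 7 d library 3 or the adipocyte-rich libraries. Krt19, a type I keratin of simple epithelia and mesothelium, stood at 4.45, 6.27 and 49.8 CPM at 28 d, at 2.60, 1.98 and 7.84 CPM at 7 d, and at 0, 0.0920 and 0.254 CPM in sham hearts. Like Ppl and Krt7, it was highest in library 3 of each MI group. Its log2 fold change against sham was 7.34 ± 1.48 at 28 d (edgeR quasi-likelihood test, adjusted p = 0.00251) and 5.06 ± 1.62 at 7 d (adjusted p = 0.0171), the second lost without sham library 1, sham library 2 or MI 7 d library 3. Krt10, the keratin of suprabasal epidermis, fell by 0.90 at 28 d (adjusted p = 0.00636) and by 0.67 at 7 d (adjusted p = 0.0165) on the log2 scale. Its call was lost at 28 d without the adipocyte-rich libraries. At 7 d it was lost with library size alone as the scaling, or without sham library 3, MI 7 d library 3 or library 3 of both MI groups.

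The table held 31 other cornified envelope genes, of which 11 had 0 counts in all libraries and 10 passed the filter. Called higher were 7 of 10 at 28 d and 8 of 10 at 7 d, and none was called lower (29.5% of all tested genes were called higher at 28 d and 39.0% at 7 d). The median log2 fold change was 1.64 at 28 d and 2.49 at 7 d. Anxa1 and S100a11, which also work in many cells outside the epidermis, had the largest rises at 7 d among those whose mean log2 CPM reached 1. Anxa1, a phospholipid-binding annexin, averaged 172 ± 102 CPM at 28 d, 248 ± 25.1 CPM at 7 d and 28.7 ± 0.577 CPM in sham hearts, log2 fold changes of 2.58 and 3.11 against sham (edgeR quasi-likelihood test, adjusted p = 0.00029 and 2.44e-05). S100a11, a calcium-binding protein, averaged 128 ± 30.9 CPM at 28 d, 240 ± 17.01 CPM at 7 d and 35.7 ± 1.56 CPM in sham hearts. Sbsn, suprabasin, averaged 5.48 ± 2.80 CPM at 28 d, 6.94 ± 4.03 CPM at 7 d and 1.27 ± 0.425 CPM in sham hearts.

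The other plakins and desmosome genes were split at 28 d and mostly lower at 7 d. Of 12 tested, 3 were called higher and 4 lower at 28 d, and 2 higher and 10 lower at 7 d. The shares over all tested genes were 29.5% higher and 25.6% lower at 28 d, and 39.0% higher and 35.4% lower at 7 d. With library size alone the counts of the 12 genes were 3 and 3 at 28 d and 2 and 7 at 7 d. Dsc2, Dsg2 and Dsp, which build the desmosomes of cardiomyocytes as well as of epithelia, had the largest falls of the list at 7 d, followed by Pkp4. The 2 called higher at 7 d were Eppk1 and Pkp3, both also called higher at 28 d. Their log2 fold changes against sham were 2.43 and 3.18 at 7 d and 2.68 and 2.42 at 28 d. Sham libraries held only 10 counts of Eppk1 and 6 of Pkp3 in all. Dsp, desmoplakin, averaged 1765 ± 327 CPM at 28 d, 676 ± 66.6 CPM at 7 d and 2150 ± 75.4 CPM in sham hearts. Its log2 fold change against sham was -1.67 ± 0.15 at 7 d (edgeR quasi-likelihood test, adjusted p = 4.64e-06) and -0.28 ± 0.14 at 28 d, not past the threshold (adjusted p = 0.119). Cardiomyocyte markers were lowest at 7 d too, and their part in the desmosome values was not tested.

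All 6 other 14-3-3 genes, relatives of Sfn that bind phosphorylated proteins in most cells, were tested, with 4 called higher and 1 lower at 28 d, and 4 higher and 2 lower at 7 d. Over all tested genes the shares were 29.5% higher and 25.6% lower at 28 d, and 39.0% higher and 35.4% lower at 7 d. Ywhaq had the largest rise of them, with log2 fold changes of 0.63 at 28 d and 0.96 at 7 d against sham, while Ywhag fell by 0.81 at 7 d on the log2 scale. The log2 fold change of Sfn at 7 d was 1.46.

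Of 17 genes of the gp130 cytokine pathway 10 were called higher and 2 lower at 28 d, and 10 higher and 3 lower at 7 d. Of all tested genes 29.5% were called higher and 25.6% lower at 28 d, and 39.0% and 35.4% at 7 d. Socs3, a feedback inhibitor that the pathway induces, averaged 17.3 ± 3.07 CPM at 28 d, 38.9 ± 13.6 CPM at 7 d and 8.24 ± 0.995 CPM in sham hearts (log2 fold changes of 1.07 and 2.24 against sham; edgeR quasi-likelihood test, adjusted p = 0.00504 and 2.14e-05). Il6ra and Clcf1, a receptor and a ligand of the family, were higher at both times, as was Osmr, the oncostatin M receptor, at 78.5 ± 6.55 CPM at 28 d, 101 ± 4.04 CPM at 7 d and 34.6 ± 1.17 CPM in sham hearts. Lifr, the receptor of leukaemia inhibitory factor, fell by 0.50 at 28 d and 0.85 at 7 d on the log2 scale, the call at 28 d being lost with library size alone or without sham library 1, sham library 3 or MI 28 d library 2. Socs3 and Osmr were lower at 28 d than at 7 d, by 1.16 and 0.37 on the log2 scale.

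Of 19 epithelial junction and regulator genes 10 were tested, with 6 called higher and 2 lower at 28 d and 5 higher and 2 lower at 7 d; of all tested genes 55.1% were called in either direction at 28 d and 74.4% at 7 d. Cdh3, P-cadherin, averaged 7.22 ± 2.51 CPM at 28 d, 44.6 ± 13.9 CPM at 7 d and 0.643 ± 0.0327 CPM in sham hearts. Like Scel it was highest at 7 d, with log2 fold changes against sham of 3.47 at 28 d and 6.10 at 7 d (edgeR quasi-likelihood test, adjusted p = 0.000189 and 8.02e-07). St14, the membrane protease matriptase, averaged 18.5 ± 0.916 CPM at 28 d, 17.9 ± 3.60 CPM at 7 d and 0.728 ± 0.163 CPM in sham hearts, with log2 fold changes of 4.64 and 4.60. Ovol1, a regulator of epidermal differentiation, fell by 0.61 at 28 d and by 1.86 at 7 d on the log2 scale. Its call at 28 d was lost with library size alone or without sham library 3 or MI 28 d library 2. The other gene called lower, Grhl2, fell more, and averaged 0.527 ± 0.262 CPM at 28 d, 0.163 ± 0.0773 CPM at 7 d and 4.39 ± 0.446 CPM in sham hearts.

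**Figure D4:**
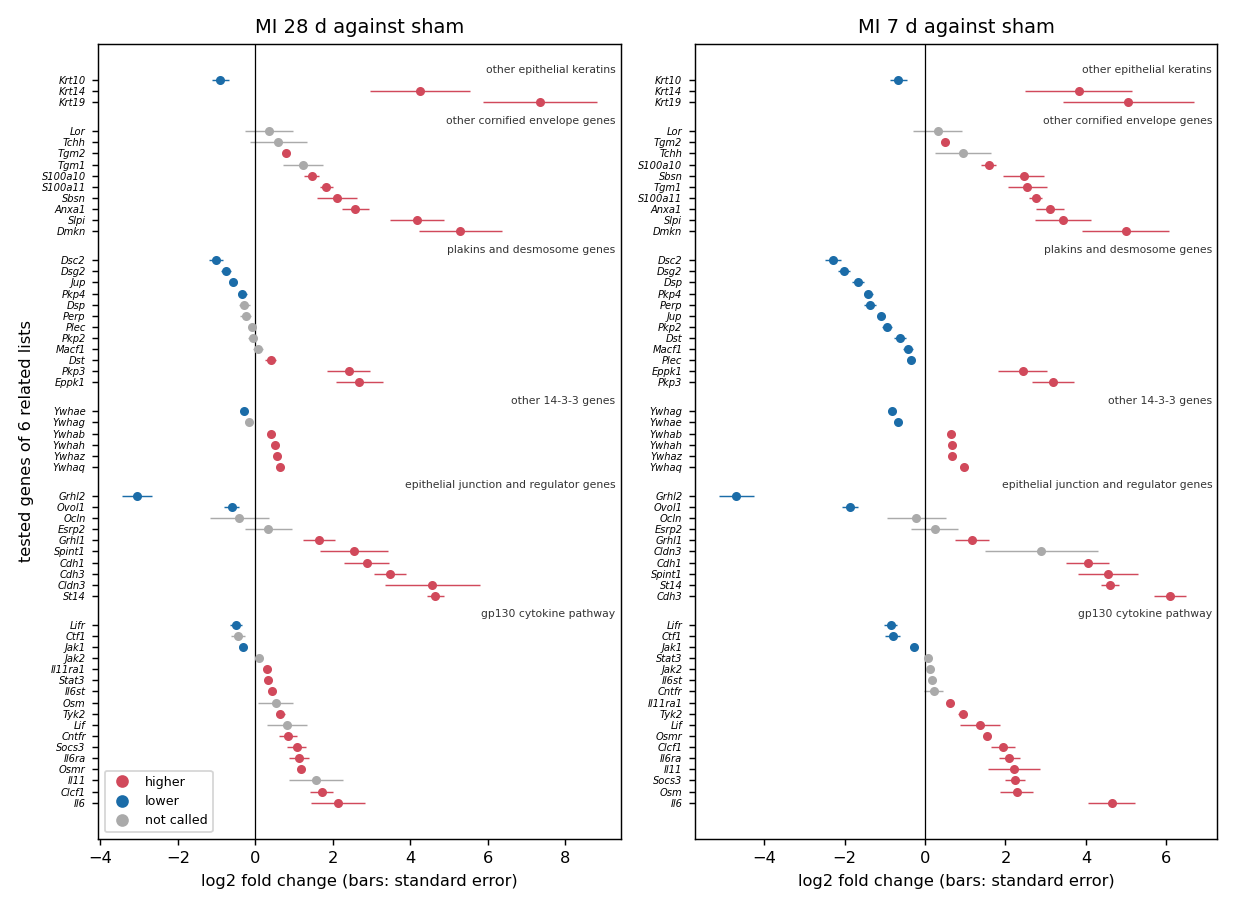
Log2 fold change against sham, with bars of ± 1 SE, for the tested genes of 6 related lists at 28 d and 7 d; red is higher, blue is lower and grey is not past an adjusted p of 0.05. Envelope genes lie at or above 0, while 10 of 12 plakin and desmosome genes are lower at 7 d (7 of 12 with library size alone). With TMM scaling 35.4% of all tested genes were called lower at 7 d.

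The genes whose profile over the 9 libraries was most like each of the 9 were found by the root mean square difference of centred log2 CPM among 12442 tested genes, a description of likeness in these libraries. For Sprr1a the nearest were Fmod and Comp, at 0.66 and 0.73. For Scel they were Lox, Clec4d and Cdh3, at 0.49, 0.58 and 0.58. For Krt18 the nearest was St14, at 0.34, and for Krt80 Dynll1, at 0.11. For Ppl it was Vit, at 0.45. For Krt7 it was Cyp2s1, at 0.55, followed by the mesothelial marker Gpm6a, at 0.65. For Sfn it was Kazald1, at 0.12, for Evpl Ces2g, at 0.35, and for Krt8 Ttc9, at 0.38.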

How the data were processed

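The data are bulk RNA-seq libraries of 9 mouse hearts, grouped by their titles into MI 28 d, MI 7 d and sham (3 each). Per the labels' protocols, total RNA went into KAPA RNA HyperPrep libraries. Trim Galore, STAR, featureCounts and the mm10 build were used, per the submitters' processing notes. The sources used here give neither the annotation nor the strand setting nor how multi-mapped reads were treated. Values are read counts per gene symbol as deposited by the authors, not normalized. Exons of Krt7, Krt8 and Krt80 overlap antisense genes by 77, 101 and 263 bases, whose reads cannot be told apart without strand.

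The genes described, and the related lists and markers, were chosen with earlier results of these data known. Tests used R 4.3.3 and edgeR 4.0.16: filterByExpr by group (minimum count 10, minimum total 15), TMM scaling, a model with 1 mean per group over all 9 libraries, and two-sided quasi-likelihood tests, with p-values adjusted by Benjamini-Hochberg across 14347 genes and a threshold of 0.05. Each SE was obtained by dividing the size of the log2 fold change by the root of its F statistic. Log2 CPM used a prior count of 2. The fit was also run on simulated counts with the same spread for all genes. In these libraries the spread differed widely between genes, so that run does not measure how reliable the calls are. Counting intervals (95%, exact) cover counting error only. The p-values measure the spread between these samples, which the design text gives as 3 mice per group.

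Eligible to be named from a list were up to 4 genes moving its main way and up to 2 moving the other way. They were ranked by size of change among called genes whose groups did not overlap and whose mean log2 CPM reached 1, and not all are printed. Krt14, Grhl2, Eppk1, Pkp3 and Dcn fall outside this rule and were named after their values were seen. Coordinates are RefSeq's for GRCm38. Levels per kilobase used the longest transcript linked to a RefSeq mRNA.

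Alternatives were other scalings (library size alone or DESeq2-type size factors), other filters (none, or 1 CPM in 3 libraries), DESeq2 1.42.0, a replicate block, a fit to only the libraries compared, and leaving out each library. Added after seeing the data were leaving out both MI libraries numbered 3, or the 3 adipocyte-rich libraries.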

Additional observations from a re-analysis of the deposited data

How the results depend on the processing

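Of 485 values recomputed for the 9 genes under other settings, 464 kept their direction and their side of the threshold, 5 fell below it, 9 passed it and 7 changed sign. A value without an adjusted p was counted as kept if its sign held. The 9 genes were selected on these fold changes, and the share kept over all tested genes was not computed. All of those that changed sign had a small value that was not called. For Ppl at 7 d against sham it was 0.041 with library size alone, and leaving out 1 library gave -0.72 to 0.067. For 28 d against 7 d, leaving out 1 library gave -0.36 to 0.024 for Krt18 and -0.57 to 0.53 for Krt8, and Krt8 was at -0.22 without both MI libraries numbered 3. Leaving out those 2 libraries, or the 3 adipocyte-rich ones, gave 5 genes called at 28 d against 7 d in place of 3, with Krt7 (1.86 and 2.09) and Sprr1a (-0.39 and -0.37) added. Sfn at 28 d against sham passed the threshold with library size alone (0.81) and without the adipocyte-rich libraries (0.68). The cause was not tested.

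Library size alone moved the median log2 fold change of all genes to 0.30 at 28 d and 0.40 at 7 d against sham, and the share of called genes that were higher to 74.0% and 67.4%, against 53.5% and 52.5% with TMM scaling. The labels do not say that replicate numbers pair the samples. Same-numbered libraries had correlations of -0.091, 0.26 and 0.30 between 28 d and 7 d. Between an MI group and sham they ranged from -0.025 to 0.021. With 3 libraries a group, these values do not show whether same-numbered samples were paired. With the number as a replicate block, 7688, 10583 and 7785 genes were called at 28 d against sham, 7 d against sham and 28 d against 7 d, and Krt7 at 28 d against 7 d passed the threshold (1.65). Depth limits the low genes: sham libraries held 3 counts of Scel, 6 of Krt7 and 7 of Krt8.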
